A study of Homo sapiens with 9 samples.

Results

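Carnosic acid was set against the vehicle in HT-29 cells, a long-established human line from a colon adenocarcinoma, after 24 h. The comparison rests on the 3 arrays labelled carnosic acid and the 3 labelled untreated, chosen by their titles alone, which are 6 of the 9 arrays of the study. The untreated cells received the vehicle and no further agent, and no allele or transgene is named for any group. The other 3 arrays came from cells given rosemary extract for the same 24 h. They entered the fit for their share of the spread and are used below only to show where carnosic acid differed. A single line stands for all cells here, the dose of carnosic acid is not given in the sources used here, and replicates are described as biological without a shared culture day, so that p-values measure the spread between these cultures only. Arrays are numbered 1 to 3 within a group, as in their titles. Each array gave a level per gene, an RMA value on the log2 scale, and for each of 14884 named genes the brightest row was used.

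Carnosic acid is a phenolic diterpene of rosemary and sage whose catechol ring is readily oxidised to a reactive quinone. Electrophiles of this kind are known to modify KEAP1, the adaptor that holds the transcription factor NRF2 for degradation. Freed NRF2 enters the nucleus with a small MAF partner, binds antioxidant response elements and raises genes of glutathione, thioredoxin, NADPH and haem metabolism. In the colon, a stem cell zone at the crypt base, kept by Wnt signalling and marked by LGR5, gives rise to absorptive and secretory cells that carry CEACAM adhesion proteins and keratin KRT20.

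The genes divided unevenly between rises and falls, and most of the changes were small. Of 11163 genes tested, once the dimmest 25% had been set aside (mean below 4.50 on the log2 scale), 2123 (19.0%) passed limma's test at an adjusted p under 0.05. The higher ones numbered 1440 (12.9%) and the lower ones 683 (6.12%). Centring the arrays on the median of the tested genes, an alternative added after the data were seen, gave 1207 higher and 1098 lower. Without carnosic acid array 1 there were 1385 calls, 367 of them lower. Of the called genes 355 changed 1.5- to 2-fold, most others changed less, and 103 genes (0.923%) changed at least 2-fold, 87 of them higher and 16 lower. Beyond 3-fold lay 12 rises and 2 falls. Calls were commonest among bright genes: with the tested genes cut into 5 equal classes of mean level, 28.7% were higher and 11.4% lower in the brightest class, and 1.39% and 3.09% in the dimmest. The groups did not overlap in 32.8% of all tested genes, which is the background for statements on overlap here. For the list shares below the background is 12.9% higher and 6.12% lower over all tested genes. In the brightest class it is 28.7% and 11.4%.

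**Figure D1:**
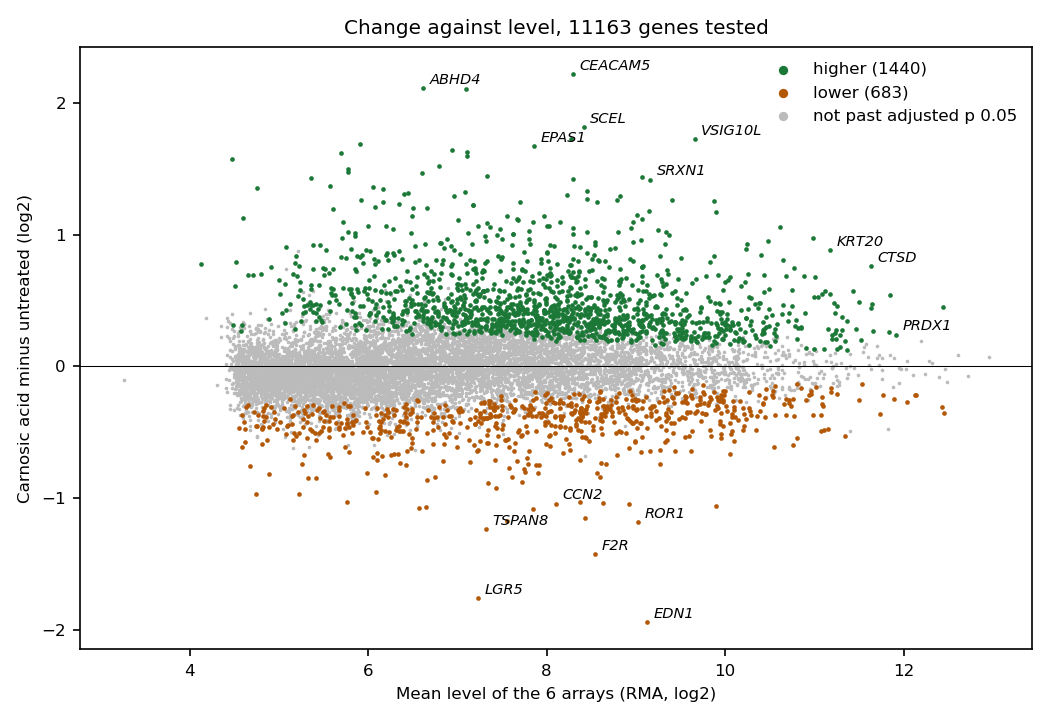
Difference of mean log2 level, carnosic acid minus untreated, against the mean level over the 6 arrays, for the 11163 genes tested. Each point is a gene, green where it was called higher (1440), orange where called lower (683) and grey otherwise. CEACAM5 lies highest and EDN1 lowest, and rises beyond 1 on the log2 scale outnumber falls of that size.

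The arrays of the 2 groups separated on the first principal component, which held 59.3% of the variance of the 6 arrays: untreated arrays lay between -16.76 and -11.98 and carnosic acid arrays between 11.36 and 18.95. The second component (14.8%) set untreated array 3 and carnosic acid array 3 (-10.23 and -9.58) apart from the other 4 arrays (1.89 to 9.14). Colonic epithelial markers were measured above the dim limit, with EPCAM at 11.39, 11.34 and 11.36 in untreated and 11.21, 11.09 and 11.16 in carnosic acid arrays and KRT18 at 12.64, 12.57 and 12.55 and 12.27, 12.29 and 12.29. The mean over the 8 measured epithelial markers ran from 9.13 to 9.20 in untreated and from 9.14 to 9.19 in carnosic acid arrays. Changes in both directions cancel in this mean. Of the 8 markers 3 were called lower, EPCAM (-0.21), KRT18 (-0.31) and VIL1 (-0.35), and 2 higher, KRT19 (0.28) and KRT20 (0.88). The fibroblast markers DCN and LUM (mean 2.96 and 3.64 in untreated cells), the hepatocyte marker ALB (3.72) and the endothelial marker PECAM1 (4.20) were under the dim limit. The hepatocyte genes APOA1 (5.89) and TTR (6.03), the endothelial gene VWF (4.87) and the leukocyte genes CD14 (4.98) and LYZ (12.43) were above it, and these 5 were not called. Of the other markers of mature absorptive cells, CA2, CA4, AQP8 and GUCA2A were not called, and CA1 was dim (3.63). CDH1, MUC2 and PTPRC had no named row here.

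The largest rise was in CEACAM5, the carcinoembryonic antigen, an adhesion protein of the apical colonocyte surface. Its level was 7.68, 6.88 and 7.0 in the 3 untreated arrays and 9.68, 9.34 and 9.19 in the 3 carnosic acid arrays. Every carnosic acid array lay above every untreated one, and untreated array 1 was the highest of its group. Groups without overlap were required by the rule that chose the largest rises and falls. The difference was 2.22 ± 0.19 (log2, SE, n = 3 per group), which is 4.65-fold, at limma's adjusted p = 1.85e-05. ABHD4, a lipase that acts on N-acyl phospholipids, went from 5.63, 5.36 and 5.70 to 7.72, 7.65 and 7.65. The treated arrays were nearly equal, and the groups differed by 2.11 ± 0.09 (adjusted p = 3.62e-07). MAOB, a monoamine oxidase of the mitochondrial outer membrane, went from 6.24, 5.86 and 6.04 to 8.38, 8.03 and 8.03, a rise of 2.10 ± 0.12 (adjusted p = 1.1e-06).

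The remaining 12 of the 15 largest rises, counted without uncharacterised, antisense and divergent transcripts and small RNAs, were led by SCEL. SCEL, the sciellin precursor of the cornified envelope, was at 7.51, 7.44 and 7.57 in untreated and 9.64, 9.17 and 9.18 in treated arrays and rose by 1.82 ± 0.11 (log2, SE). VSIG10L, an immunoglobulin-domain protein, was at 8.96, 8.79 and 8.64 against 10.52, 10.57 and 10.48 and rose by 1.73 ± 0.08. In both genes the groups lay far apart compared with the spread within either. GPAT3, which adds the first acyl chain in triglyceride synthesis, rose by 1.73 ± 0.08 from 7.42, 7.35 and 7.45 to 9.23, 9.18 and 8.99. EPAS1, the hypoxia-inducible factor 2 alpha subunit, rose by 1.67 ± 0.10 from 7.15, 6.89 and 7.03 to 8.79, 8.72 and 8.58. SPP1, the secreted phosphoprotein osteopontin, had the widest spread of the 15: 6.87, 6.03 and 5.99 in untreated arrays and 8.27, 8.0 and 7.51 with carnosic acid. Its difference of 1.63 ± 0.29 had the largest standard error among them (adjusted p = 0.00241). The remaining members of the 15 were EMP3 (1.6), the actin nucleator SPIRE1 (1.52), the aquaporin pseudogene AQP7P3 (1.5), the lipoprotein receptor VLDLR (1.48), the lysosomal protease CTSL (1.47), TMEM92 (1.44) and the Notch ligand JAG1 (1.44).

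EDN1 and LGR5 led the falls. EDN1 encodes endothelin 1, a peptide that acts on G protein-coupled receptors. It was at 10.12, 9.98 and 10.18 in untreated cells and stood at 8.10, 7.90 and 8.46 with carnosic acid, having fallen by 1.94 ± 0.14 (log2, SE) or 3.83-fold (adjusted p = 9.03e-06). LGR5, the R-spondin receptor of crypt stem cells, went from 8.11, 7.97 and 8.26 to 6.25, 6.06 and 6.75 and fell by 1.76 ± 0.15 (adjusted p = 2.06e-05). The groups were apart in both genes, as the rule required, and in both carnosic acid array 3 was the least changed. F2R, the thrombin receptor PAR1, fell by 1.42 ± 0.14 from 9.18, 9.15 and 9.44 to 7.58, 7.76 and 8.16. ROR1, a receptor for Wnt ligands, fell by 1.18 ± 0.14 from 9.54, 9.57 and 9.73 to 8.19, 8.29 and 8.82. TSPAN8, a tetraspanin of epithelial membranes, fell by 1.23 ± 0.13 from 8.07, 7.68 and 8.06 to 6.78, 6.61 and 6.72. Carnosic acid array 3 was again nearest to the untreated level in F2R and ROR1, but not in TSPAN8. AQP5, a water channel, fell by 1.15 ± 0.11 with tight groups, 9.05, 8.97 and 9.0 against 7.73, 7.91 and 7.92.

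Enzymes and a pair of YAP-TEAD genes were among the other falls. HSD17B2 and HSD17B11, dehydrogenases of sex steroids and related substrates, fell by 1.08 ± 0.10 and 1.04 ± 0.10 (log2, SE). The TEAD cofactor VGLL1 fell by 1.17, the YAP target CCN2 by 1.04, the scaffold IQGAP2 by 1.07 and PLAC8 by 1.07. SERF2 fell by 1.03, the guanine deaminase GDA by 1.03 and the adrenergic receptor ADRA2A by 1.03. The dimmer row of SERF2 gave -0.03 and that of CCN2, which is under the dim limit, 0.06. All 30 genes, the 15 rises and the 15 falls, kept their calls under the 20 alternative settings, of which ADRA2A was tested in 19, since it was left out with the dimmer 50%. A call under every setting or alternative means here every one of the 20 in which the gene was tested.

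**Figure D2:**
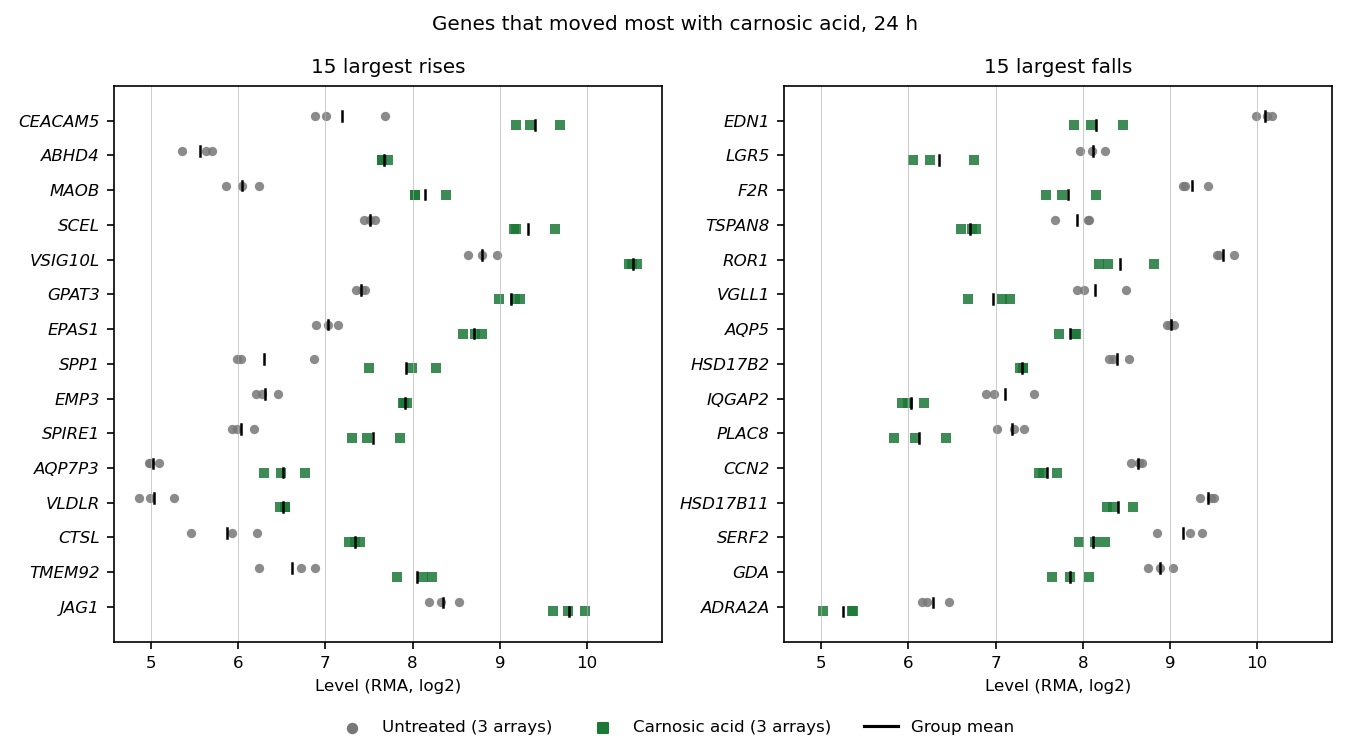
Log2 level in each array of the 15 genes that rose most (left) and the 15 that fell most (right), leaving out uncharacterised, antisense and divergent transcripts and small RNAs. Grey circles are the 3 untreated arrays, green squares the 3 carnosic acid arrays and black ticks the group means. In each of the 30 genes the groups do not overlap, as the rule that chose them required, and CEACAM5 and EDN1 show the largest differences.

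Some genes crossed the dim limit, so only levels are given for them. STEAP1, a membrane metalloreductase, was at 3.70, 3.28 and 4.08 in untreated and 5.09, 5.15 and 5.54 in treated arrays. TLR6, a partner of TLR2 in lipopeptide sensing, was at 3.91, 4.28 and 4.05 and 5.78, 5.20 and 5.32, and SPRR1B, a small proline-rich protein of the cornified envelope, at 3.73, 3.82 and 4.57 and 5.78, 4.83 and 4.87. All 3 were called higher without overlap between the groups, as the rule that chose them required. Their untreated means lay under the limit. ANKRD1, a YAP target, was at 4.88, 4.84 and 5.43 in untreated and 4.33, 4.18 and 4.37 in treated arrays. The angiopoietin ANGPT1 stood at 4.67, 4.67 and 5.00 and 4.31, 4.23 and 4.40, and the neurotrophin BDNF at 4.77, 4.83 and 4.86 and 4.50, 4.34 and 4.36. By the same rule these 3 were called lower without overlap, with treated means under the limit.

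NRF2-linked enzymes were mostly called higher or not called. Of 18 tested enzymes of glutathione and thioredoxin metabolism 8 (44.4%) were called higher, with a median change of 0.22 against -0.01 over all tested genes. The higher share was 12.9% over all tested genes and 28.7% in their brightest class. Leaving out carnosic acid array 2 gave 5 of the 18. The 1 lower member was GPX1 (-0.30), a call lost under 8 of the 20 settings, among them each one without a carnosic acid array. SRXN1, the sulfiredoxin that repairs overoxidised peroxiredoxins, was at 8.34, 8.49 and 8.52 in untreated and 10.04, 9.81 and 9.76 in treated arrays. It rose by 1.42 ± 0.08 (log2, SE), or 2.67-fold, at limma's adjusted p = 1.4e-06. GSR, glutathione reductase, rose by 0.89 ± 0.06 from 9.78, 9.89 and 9.69 to 10.77, 10.66 and 10.60, and TXNRD1, thioredoxin reductase, by 0.67 ± 0.07 from 9.13, 9.13 and 9.16 to 9.93, 9.81 and 9.68. In all 3 genes the groups were apart, and carnosic acid array 1 was the highest of the 6 arrays. The peroxidase PRDX1 went from 11.82, 11.73 and 11.83 to 12.04, 12.04 and 12.04, a rise of 0.24 ± 0.04, and the microsomal transferase MGST1 rose by 0.34. GCLC, GCLM, SLC7A11 and NQO1, well-known targets, had no named row here.

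Haem and carbonyl enzymes were also called higher for the most part, and so were 3 pentose phosphate enzymes. All but 1 of the 5 tested genes of haem and iron handling were called higher (80.0%), under every alternative. That list held 12 genes, of which 7 had no named row here. FECH, which inserts iron into haem, rose by 1.0 ± 0.07 from 7.07, 7.16 and 7.13 to 8.22, 8.08 and 8.07. HMOX1, which breaks haem down, rose by 0.97 ± 0.09 from 7.18, 7.40 and 7.37 to 8.36, 8.35 and 8.15, and BLVRB, a biliverdin reductase, by 0.62 ± 0.08. The groups were far apart in FECH and HMOX1 compared with the spread within either. Of 9 tested genes of drug and carbonyl metabolism 6 were higher (66.7%) and 1 lower, each under every alternative. Besides MAOB these were the carbonyl reductases CBR3 (1.21 ± 0.11) and CBR1 (0.59 ± 0.09), PTGR1, a reductase of reactive aldehydes (1.17 ± 0.07), UGDH, which makes UDP-glucuronate (0.97 ± 0.07), and ALDH2 (0.45 ± 0.09). The lower one was the galactosyltransferase UGT8 (-0.49). PGD, an NADPH-forming enzyme of the pentose phosphate pathway, had 3 nearly equal treated arrays (10.83, 10.83 and 10.80) above 3 nearly equal untreated ones (9.94, 10.02 and 9.98) and rose by 0.84 ± 0.04. TKT, transketolase, rose by 0.40 ± 0.05. They were among 3 of 5 tested genes called higher (60.0%) in a list of NADPH-forming and pentose phosphate enzymes. TKT and the third, the transaldolase TALDO1 (0.27), do not form NADPH themselves. TALDO1 lost its call without any 1 of the carnosic acid arrays. The NADPH-forming transhydrogenase NNT was called lower (-0.26), a call lost without untreated array 3 or carnosic acid array 1 or 2.

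Among the regulators of NRF2, 5 of 8 were called higher (62.5%), 3 without carnosic acid array 1. SQSTM1, which sequesters KEAP1 and links cargo to autophagy, rose by 0.80 ± 0.09 from 8.07, 8.26 and 8.22 to 9.12, 9.01 and 8.83. NFE2L1, the related factor NRF1, rose by 0.32 ± 0.05 and KEAP1 by 0.27 ± 0.06 (log2, SE). NFE2L2, which encodes NRF2 itself, read 8.90, 8.88 and 8.99 in untreated and 8.94, 8.84 and 8.79 in treated arrays. These values overlap, and the difference of -0.06 ± 0.06 did not pass (adjusted p = 0.52). Metallothioneins and their factor MTF1 were higher in 4 of 7 (57.1%), a count of 1 without untreated array 2 and 2 without untreated array 3 or carnosic acid array 1 or 2. MTF1 (0.49 ± 0.08) was the member called under every setting. Of 11 heat shock genes 2 were higher and 2 lower, and BAG3, a cochaperone (0.47 ± 0.06), alone was called under every setting. The calls of HSPA1B (0.20), HSPD1 (-0.20) and HSPA4L (-0.21) were all lost without carnosic acid array 1 or 2, and those of HSPD1 and HSPA4L also without untreated array 3 or extract array 1.

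The antioxidant response element core, TGACNNNGC on either strand, was looked for in the 250 bases before each start in RefSeq's GRCh38.p14. It was present in 5 of 21 called members of these NRF2-linked lists (23.8%), in 4 of 13 not called (30.8%) and in 12.1% of all 8486 tested genes with a promoter. The 100-base windows of 4 of the called enzymes are shown, read in the direction of the gene, with the match in capitals, since they span thioredoxin, NADPH, haem and carbonyl metabolism. They lie at chr12:104215635-104215734 (plus strand), chr1:10398818-10398917 (plus), chr18:57586703-57586802 (minus) and chr21:36069820-36069919 (plus), and the matches stand 99, 201, 38 and 159 bases before the start.
TXNRD1: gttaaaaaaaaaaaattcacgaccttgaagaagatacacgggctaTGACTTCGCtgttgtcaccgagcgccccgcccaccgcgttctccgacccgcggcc
PGD: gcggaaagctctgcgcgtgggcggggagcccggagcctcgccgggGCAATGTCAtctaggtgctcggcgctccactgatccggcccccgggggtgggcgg
FECH: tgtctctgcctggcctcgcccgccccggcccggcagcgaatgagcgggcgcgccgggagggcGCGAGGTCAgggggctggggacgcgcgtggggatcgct
CBR1: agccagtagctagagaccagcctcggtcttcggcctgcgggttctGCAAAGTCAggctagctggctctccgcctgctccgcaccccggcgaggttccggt
In TXNRD1 the match runs with the gene, and in PGD, FECH and CBR1 it is on the opposite strand. A match describes these letters only.

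Lysosomal genes rose in part. Of 23 tested hydrolases and membrane proteins of the lysosome 13 (56.5%) were called higher and 0 lower (1 without extract array 1 or 3), with a median of 0.24, and 8 were called under every alternative. CTSL, a cysteine protease, went from 5.45, 5.93 and 6.22 to 7.34, 7.39 and 7.27 and rose by 1.47 ± 0.16 (log2, SE). Its untreated arrays were spread and its treated arrays close together. CTSD, an aspartic protease, went from 11.30, 11.25 and 11.20 to 12.01, 12.04 and 11.99, a rise of 0.76 ± 0.04 (adjusted p = 5.86e-07). PSAP, the precursor of the saposins that present sphingolipids to their hydrolases, rose by 0.69 ± 0.04 from 10.55, 10.53 and 10.53 to 11.28, 11.20 and 11.20. The sulfatase IDS rose by 1.0 ± 0.07, the sialidase NEU1 by 0.92 ± 0.07, the peptidase TPP1 by 0.72 ± 0.11, CTSB by 0.37 and CTSA, which protects NEU1, by 0.25. CD68, a lysosomal glycoprotein also used as a macrophage marker, rose by 1.24 ± 0.08 from 8.05, 7.85 and 7.91 to 9.31, 9.11 and 9.13. It was the 1 called of 5 tested leukocyte markers. CD14 (-0.27) and LYZ (-0.08) were not called.

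Autophagy genes rose in part. Of 25 tested 10 were higher (40.0%), 6 without carnosic acid array 1, and 1 was lower, ATG3 (-0.14), a call lost under 15 settings, among them the omission of any array but untreated array 2. GABARAPL1, an ATG8-family protein of the autophagosome, went from 6.25, 5.71 and 5.79 to 7.49, 6.99 and 6.71 and rose by 1.14 ± 0.21 (log2, SE, adjusted p = 0.0029). Within each group array 1 was the highest. MAP1LC3B, another ATG8-family gene, rose by 0.58 ± 0.12 and GABARAP by 0.32 ± 0.04. TFE3, a factor that drives lysosomal genes, rose by 0.67 ± 0.06 from 8.23, 8.45 and 8.26 to 9.0, 8.96 and 8.96, with treated arrays nearly equal. The palindrome TCACGTGA, which reads the same on both strands and is the core of the lysosomal CLEAR element, was in 3 of 19 called members of the lysosome and autophagy lists (15.8%), 0 of 17 not called and 1.59% of all tested genes with a promoter. The 3 were CTSA, LAMP1 and MCOLN1, of which LAMP1 and MCOLN1 had calls lost under 6 and 11 settings, among them without carnosic acid array 1 (adjusted p = 0.0862 and 0.0679). The window of CTSA, called under every setting, holds the match 26 bases before the start and lies at chr20:45891235-45891334 (plus strand).
CTSA: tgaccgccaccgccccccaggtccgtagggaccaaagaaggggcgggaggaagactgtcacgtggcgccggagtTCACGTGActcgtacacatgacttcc

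Genes of the integrated stress response rose in part. The study's title names the unfolded protein response, so the direction of these lists is not independent evidence. In the PERK-ATF4 arm 7 of 12 tested genes were called higher (58.3%) and 0 lower, 5 of them under every alternative, with a median of 0.39. VLDLR, raised by ATF4 in stressed cells, went from 4.87, 4.99 and 5.27 to 6.53, 6.53 and 6.48 and rose by 1.48 ± 0.12 (log2, SE). EIF2AK3, the sensor kinase PERK, rose by 0.54 ± 0.10 from 6.61, 6.92 and 6.87 to 7.41, 7.25 and 7.36. The pseudokinase TRIB3 rose by 0.58 ± 0.14, the mTOR inhibitor DDIT4 by 0.42 ± 0.08 and the growth factor VEGFA by 0.35 ± 0.08. ATF4 itself read 9.64, 9.59 and 9.50 in untreated and 9.55, 9.46 and 9.36 in treated arrays, values that overlap (difference -0.12 ± 0.06, adjusted p = 0.188). Its activity is controlled mostly through translation.

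In the list of ER chaperones and their degradation partners 6 of 15 tested were higher (40.0%) and 0 lower. ERN1, the sensor IRE1, went from 5.74, 5.27 and 5.65 to 6.36, 6.31 and 6.35, a rise of 0.79 ± 0.15, with treated arrays nearly equal. The retrotranslocation genes DERL1 and SEL1L rose by 0.46 ± 0.06 and 0.35 ± 0.08, and HYOU1, an ER chaperone, by 0.41 ± 0.05, while its dimmer row gave -0.02. XBP1, the target of IRE1, was not called (0.08 ± 0.06, adjusted p = 0.391). Among amino acid synthesis genes 5 of 11 were higher (45.5%) and 1 lower, SHMT1 (-0.39), a call lost on the omission of any array but carnosic acid array 3. ASNS, asparagine synthetase, went from 7.04, 7.15 and 7.15 to 8.20, 8.37 and 8.13 and rose by 1.12 ± 0.08. PSAT1 of serine synthesis showed very tight groups, 10.52, 10.53 and 10.52 against 10.99, 10.97 and 10.97, and rose by 0.46 ± 0.04, PHGDH by 0.41 ± 0.08 and ASS1 of arginine synthesis by 0.58 ± 0.09. Of 17 aminoacyl-tRNA synthetases 4 were higher (23.5%) and 1 lower. That higher share lay between the 12.9% of all tested genes and the 28.7% of their brightest class. WARS1 (0.80 ± 0.07, dimmer row 0.14), GARS1 (0.44 ± 0.07) and SARS1 (0.43 ± 0.06) rose and KARS1 (-0.29 ± 0.05) fell under every setting. The fourth, NARS1 (0.13), was called in the fit but not under 13 of the settings, among them the omission of any carnosic acid array.

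The CARE letters TGATGNAA, a response element of ATF4 dimers, stood in the 250 bases before the start of 1 of 15 called members of these lists (6.67%), ASNS, against 5 of 16 not called (31.2%) and 1.45% of all tested genes with a promoter. Both strands were searched. The window of ASNS lies at chr7:97872423-97872522 (minus strand), with the match 68 bases before the start.
ASNS: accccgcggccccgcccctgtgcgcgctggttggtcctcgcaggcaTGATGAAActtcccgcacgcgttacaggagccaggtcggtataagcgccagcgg

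Cholesterol genes were called higher in part. The title names cholesterol metabolism, so its lists too give no independent evidence of direction. Of 13 cholesterol synthesis enzymes 4 were higher (30.8%), each under every alternative, and the median was 0.07. Beside it stand 12.9% higher over all tested genes and 28.7% in their brightest class. ACAT2 (-0.35) was lower, a call lost under 6 settings, among them without carnosic acid array 1 or 2. MSMO1, a sterol demethylase, rose by 0.76 ± 0.09 from 8.63, 8.66 and 8.78 to 9.24, 9.51 and 9.60. SQLE, squalene epoxidase, went from 10.26, 10.09 and 10.24 to 10.68, 10.81 and 10.85, a rise of 0.58 ± 0.07. In both genes carnosic acid array 3 was the highest array. STARD4, a cytosolic sterol carrier, rose by 0.92 ± 0.09 from 7.19, 7.17 and 7.09 to 8.14, 7.95 and 8.13, INSIG1, the ER anchor of SREBP processing, by 0.78 ± 0.09, and SREBF2, the sterol-responsive factor, by 0.34 ± 0.07. Of 9 uptake and sensing genes 4 were higher (44.4%) and 1 lower, TMEM97 (-0.36), a call lost without any 1 of the untreated arrays or carnosic acid array 1 or 2. The largest rise among the 9 was that of VLDLR (1.48), which is also counted in the PERK-ATF4 arm. The core of a sterol regulatory element, TCACNCCAC on either strand, was in 1 of 7 called members (14.3%), SREBF2, 0 of 12 not called and 0.754% of all tested genes with a promoter. The window of SREBF2 lies at chr22:41832927-41833026 (plus strand), with the match 133 bases before the start.
SREBF2: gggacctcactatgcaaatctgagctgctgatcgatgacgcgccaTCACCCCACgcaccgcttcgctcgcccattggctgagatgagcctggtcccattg

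In the list of fatty acid synthesis and desaturation 5 of 16 tested were higher (31.2%), each under every alternative, and 11 were not called. Among all tested genes 12.9% were higher, and in their brightest class 28.7%. The list's median of 0.04 turned to -0.01 under cyclic loess and under centring on the tested genes. ACSL1, which activates long-chain fatty acids, went from 6.05, 6.48 and 6.40 to 7.85, 7.39 and 7.59, a rise of 1.30 ± 0.15 (log2, SE). ACSS2, the cytosolic acetyl-CoA synthetase, rose by 0.86 ± 0.10, the elongase ELOVL1 by 0.79 ± 0.04 and the desaturase SCD by 0.75 ± 0.06 (dimmer row 0.11). ELOVL1 had level treated arrays, 10.22, 10.22 and 10.22, against 9.42, 9.39 and 9.49. FASN, the fatty acid synthase, read 9.34, 9.37 and 9.42 in untreated and 9.10, 9.20 and 9.39 in treated arrays, which overlap (difference -0.15 ± 0.07, adjusted p = 0.181). It was called lower without carnosic acid array 3 (adjusted p = 0.0314). In the glycerolipid and lipid droplet list 6 of 15 were higher (40.0%), with ABHD4 and GPAT3 at the head, the droplet coat PLIN3 (0.39 ± 0.08) and the phosphatidate phosphatase LPIN2 (0.29 ± 0.06). Of 11 oxidation and PPAR genes 2 rose, CPT1A, the carnitine transferase of mitochondrial import (0.48 ± 0.05), and PPARD (0.45 ± 0.06), and 2 fell, HADH of beta-oxidation (-0.61 ± 0.09) and PPARG (-0.57 ± 0.08). PPARG went from 9.15, 9.29 and 9.38 to 8.59, 8.64 and 8.87 and PPARD from 8.30, 8.21 and 8.20 to 8.69, 8.70 and 8.68, without overlap in either.

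Of 17 hypoxia-inducible genes 6 were higher (35.3%), against 12.9% of all tested genes and 28.7% of their brightest class. Besides EPAS1 these included NDRG1, a stress-responsive gene, at 5.99, 6.11 and 6.08 against 7.53, 7.35 and 6.91 (1.2 ± 0.13), the carbonic anhydrase CA12 at 9.01, 8.81 and 8.74 against 9.87, 9.84 and 9.67 (0.93 ± 0.08) and the mitophagy receptor BNIP3L (0.49 ± 0.10). Carnosic acid array 3 was the least changed of its group in NDRG1, CA12 and EPAS1. In the BCL2 family 3 of 13 were higher (23.1%, under the 28.7% of the brightest class), with BCL2L1, an inhibitor of apoptosis, at 0.29 ± 0.05 under every setting. Of 8 p53 targets 1 was lower, SESN1 (-0.49), a call lost under 10 settings, among them when untreated array 2 or 3 or carnosic acid array 1 or 2 was left out.

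**Figure D3:**
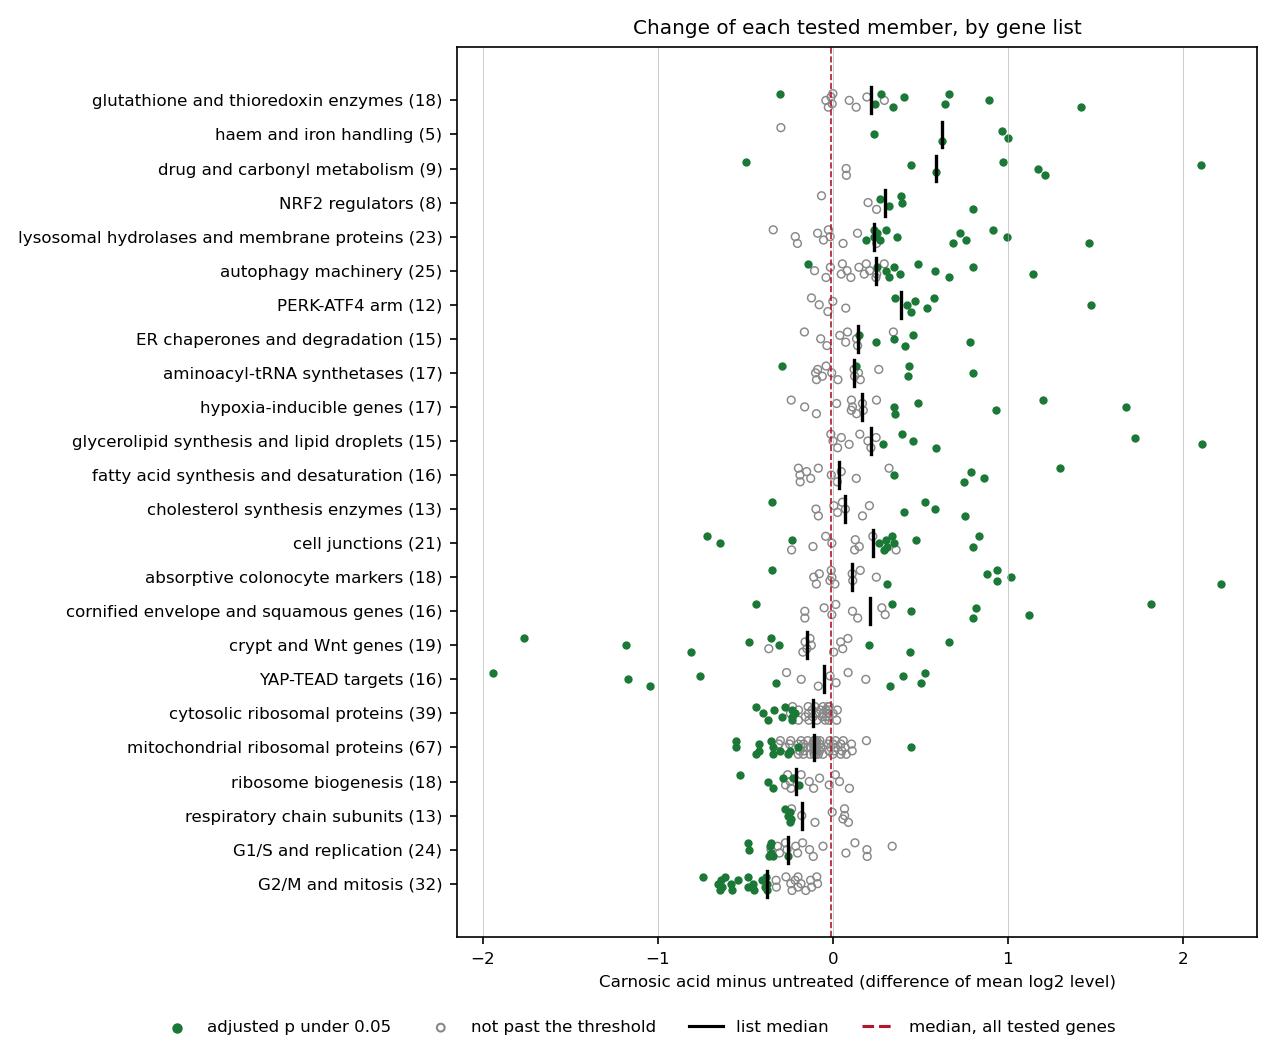
Difference of mean log2 level, carnosic acid minus untreated, for each tested member of 24 gene lists, with the number tested in brackets. Green points passed limma's adjusted p under 0.05, open points did not, black bars are list medians and the dashed line is the median of all tested genes (-0.01). Medians of the NRF2-linked lists lie to the right, from 0.22 to 0.62, and those of the ribosomal and cell cycle lists to the left, from -0.38 to -0.11.

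Among genes of protein synthesis and respiration the calls were mostly falls, and most members were not called. Of 39 tested cytosolic ribosomal proteins 10 were called lower (25.6%) and 0 higher, with a median of -0.11. Without untreated array 1 there were 6, and 5 were called under every setting. The lower share was 6.12% over all tested genes and 11.4% in their brightest class, at levels of 8.32 to 12.96. RPL19 fell by 0.37 ± 0.07 (dimmer row -1.06) and RPS19 by 0.27 ± 0.05, from 12.15, 12.26 and 12.12 to 11.84, 11.87 and 12.02, where carnosic acid array 3 was nearest to the untreated arrays. Of 67 mitochondrial ribosomal proteins 12 were lower (17.9%) and 1 higher. The lower count was 20 under cyclic loess and under centring on the tested genes, and 7 without carnosic acid array 1. MRPL35 fell by 0.55 ± 0.08 and MRPL42 by 0.55 ± 0.12, while MRPL2 rose by 0.45 ± 0.08 from 8.83, 9.12 and 9.03 to 9.35, 9.45 and 9.52. Among 18 ribosome biogenesis genes 6 were lower (33.3%), 3 without carnosic acid array 1 or 2. FBL, the methyltransferase fibrillarin, went from 11.52, 11.66 and 11.63 to 10.96, 11.08 and 11.18 and fell by 0.53 ± 0.07. Of 13 respiratory chain subunits 5 were lower (38.5%), 3 without untreated array 3 and 2 without carnosic acid array 1 or 2. Of 11 translation factors 3 were lower (27.3%) and 1 higher (9.09%). EEF1G (-0.36) and EIF5B (-0.31) fell under every setting, EIF4B (-0.15) lost its call under 12 settings, among them without any carnosic acid array, and the higher one, EIF4EBP1 (0.30), under 5, among them without untreated array 3 or carnosic acid array 2 or 3. In the respiratory list COX4I1 fell by 0.25 ± 0.05 and UQCRC2 by 0.24 ± 0.05 under every setting.

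Mitotic genes fell in part, by amounts that differed between the treated arrays. Of 32 tested G2/M genes 18 (56.2%) were called lower and 0 higher, 13 of them under every setting, and their median was -0.38. Averaged over the 32 genes, the 3 carnosic acid arrays lay -0.54, -0.45 and -0.15 from the untreated mean on the log2 scale, and the untreated arrays themselves -0.01, -0.05 and 0.06. The groups did not overlap in this average, and carnosic acid array 3 was much the nearest to untreated. CCNB2, a mitotic cyclin, shows the pattern: 9.47, 9.40 and 9.59 in untreated and 8.64, 8.72 and 9.17 in treated arrays, a fall of 0.64 ± 0.12 (log2, SE, adjusted p = 0.00283). BIRC5, survivin, went from 8.46, 8.54 and 8.52 to 7.66, 7.82 and 8.08 and fell by 0.66 ± 0.10, and the kinesin KIF18A from 8.61, 8.42 and 8.69 to 7.88, 7.83 and 8.12, a fall of 0.63 ± 0.09. NUSAP1 of the spindle fell by 0.61 ± 0.12, the phosphatase CDC25C by 0.58 ± 0.11, the kinase AURKA by 0.48 ± 0.10, CDK1 by 0.37 ± 0.08 and TOP2A, the decatenating topoisomerase, by 0.54 ± 0.11. In bulk RNA, fewer cells in a phase and less RNA per cell cannot be told apart.

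Replication genes were lower in part. Of 24 G1/S genes 8 were lower (33.3%), and the count depended on single arrays: 4 without untreated array 1, 3 without untreated array 2, 5 without extract array 1, 3 without carnosic acid array 1 and 4 without carnosic acid array 2. The 24-gene average was -0.28, -0.23 and -0.05 in the treated arrays and -0.03, 0.02 and 0.01 in the untreated ones. SLBP, which binds histone mRNA, fell by 0.48 ± 0.06 from 10.02, 10.07 and 10.11 to 9.52, 9.58 and 9.66, RRM1, a ribonucleotide reductase subunit, by 0.34 ± 0.06 and PCNA, the polymerase clamp, by 0.26 ± 0.06, under every setting.

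The letters TTTGAA on either strand, the cell cycle homology region found in G2/M promoters, stood in 9 of 15 called G2/M genes with a promoter (60.0%), 7 of 14 not called (50%) and 8.67% of all tested genes with one. Among all genes called lower the share was 12.1%. Windows of 3 of the falling genes end at the start and hold the match 29, 10 and 20 bases before it. They lie at chr15:59105046-59105145 (plus strand), chr11:28108157-28108256 (minus) and chr15:90994536-90994635 (minus).
CCNB2: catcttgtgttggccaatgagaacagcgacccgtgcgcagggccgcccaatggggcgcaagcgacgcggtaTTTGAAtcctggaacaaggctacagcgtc
KIF18A: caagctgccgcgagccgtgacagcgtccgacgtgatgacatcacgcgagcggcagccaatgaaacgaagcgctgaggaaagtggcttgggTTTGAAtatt
PRC1: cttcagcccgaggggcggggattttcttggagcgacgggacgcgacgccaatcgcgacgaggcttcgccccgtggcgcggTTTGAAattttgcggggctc
PRC1, which bundles microtubules at the spindle midzone, fell by 0.39 ± 0.08. The 5 motifs shared bases in 33 tested genes, 1 of them a member of the lists searched.

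**Figure D4:**
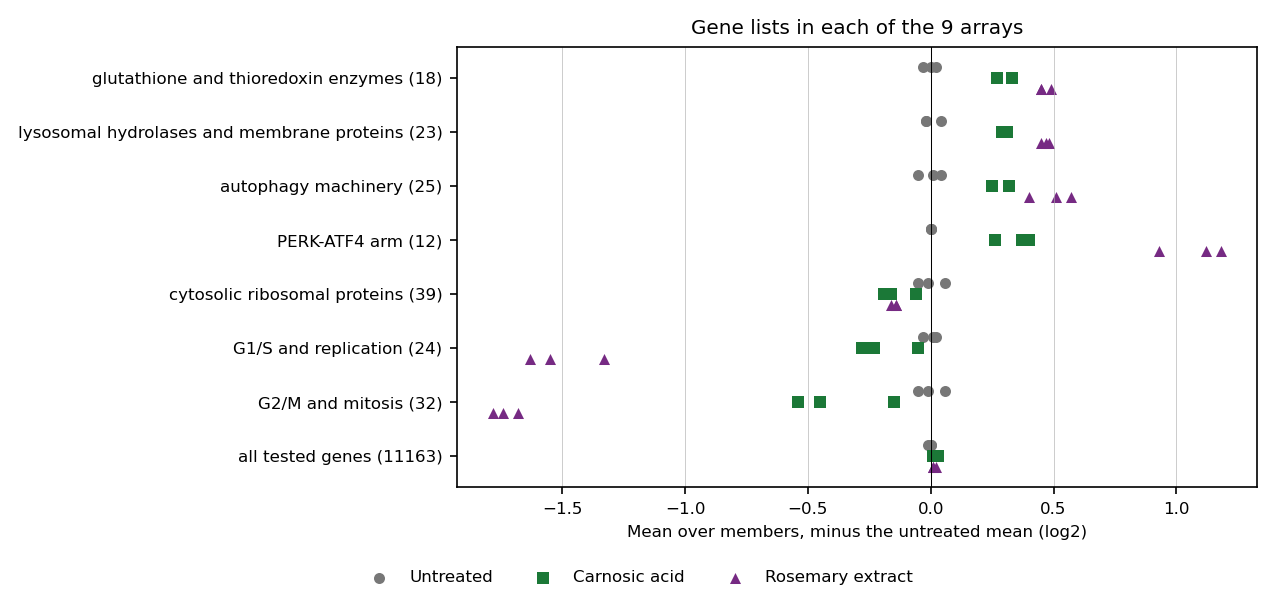
Mean log2 level over the tested members of 7 gene lists and over all tested genes, in each of the 9 arrays, as the difference from the untreated mean. Grey circles are untreated, green squares carnosic acid and purple triangles rosemary extract arrays. In the G2/M list the carnosic acid arrays spread from -0.54 to -0.15, between the untreated arrays and the extract arrays (-1.78 to -1.68), and in the lysosomal list they lie within 0.29 to 0.31.

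Crypt and Wnt genes moved both ways, more of them down, and surface colonocyte genes rose in part. Of 19 crypt and Wnt genes 6 were lower (31.6%) and 3 higher (15.8%). Besides LGR5 and ROR1, PROM1, the stem cell antigen CD133, fell by 0.81 ± 0.09 from 8.34, 8.26 and 8.33 to 7.52, 7.47 and 7.51, the hyaluronan receptor CD44 by 0.48 ± 0.09 and MYC by 0.35 ± 0.08. AXIN2, a feedback inhibitor induced by Wnt, went the other way, from 8.53, 8.42 and 8.55 to 9.30, 9.08 and 9.11, and rose by 0.66 ± 0.08, as did the receptor FZD7 (0.44 ± 0.10). SOX9 (0.21) was called higher too and SP5 (-0.31) lower. Both calls were lost without any 1 of the carnosic acid arrays. Of 18 absorptive colonocyte markers 6 were higher (33.3%) and 1 lower. Of all tested genes 12.9% were higher, and of their brightest class 28.7%. CA2, CA4, AQP8 and GUCA2A, described above, were not called. CEACAM6 rose by 1.02 ± 0.15 from 9.18, 8.55 and 8.74 to 10.06, 9.77 and 9.70, DPP4, a brush border peptidase, by 0.94 ± 0.11 and CDHR5, a microvillar cadherin, by 0.94 ± 0.08. KRT20, the keratin of surface colonocytes, went from 10.73, 10.64 and 10.84 to 11.62, 11.69 and 11.54, a rise of 0.88 ± 0.06 (adjusted p = 2.58e-06). VIL1, villin of the brush border, fell by 0.35 ± 0.07 from 8.57, 8.55 and 8.51 to 8.13, 8.13 and 8.34. The secretory factor SPDEF rose by 0.92 ± 0.10 under every setting, while TFF3 and ATOH1 were not called (-0.12 and 0.09).

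Junction and envelope genes changed in both directions. Of 21 junction genes 9 were higher (42.9%), 5 without untreated array 2 or carnosic acid array 1 and under centring on the tested genes, and 3 were lower (14.3%). The desmosomal cadherin DSC2 rose by 0.84 ± 0.09 from 9.56, 9.31 and 9.50 to 10.47, 10.24 and 10.16 and periplakin PPL by 0.80 ± 0.07. Tight junction claudins split: CLDN12 (0.47 ± 0.10) and CLDN7 (0.31 ± 0.06) rose, while CLDN2, a cation pore, fell by 0.72 ± 0.12 from 7.29, 7.12 and 7.19 to 6.44, 6.51 and 6.51 and CLDN1 by 0.64 ± 0.14. Of 16 cornified envelope and squamous genes 6 were higher (37.5%), each under every setting, among them SCEL, EMP1 (0.82 ± 0.08) and the secreted protease KLK6, at 12.14, 12.26 and 12.26 against 12.60, 12.71 and 12.70 (0.45 ± 0.06). Involucrin, IVL (-0.44), was lower, a call lost under 11 settings, among them without any 1 of the untreated arrays. Among keratins of simple epithelia KRT18 (-0.31) was called lower, KRT19 (0.28) and KRT20 (0.88) were called higher, and KRT8 (-0.11) was not called.

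Growth factor and YAP genes changed in both directions too. Of 25 MAPK feedback and immediate early genes 7 were higher (28%) and 4 lower (16%). Over all tested genes these shares were 12.9% and 6.12%, and in the brightest class 28.7% and 11.4%. The ERK phosphatase DUSP5 rose by 0.92 ± 0.12 from 8.06, 7.71 and 7.77 to 8.94, 8.77 and 8.58 (dimmer row 0.00), IER5 by 0.67 ± 0.08, SPRY4 by 0.64 ± 0.13 and FOSL1 by 0.64 ± 0.15. JUN fell by 0.53 ± 0.07 from 9.37, 9.36 and 9.27 to 8.92, 8.65 and 8.83, and SPRY2, of the same family as SPRY4, by 0.32 ± 0.06. Of 7 ERBB genes 3 rose under every setting: the ligand EGF (0.60 ± 0.09), its receptor EGFR (0.34 ± 0.06) and the inhibitor ERRFI1 (0.29 ± 0.06). Of 16 genes of the YAP-TEAD list, which holds targets, a cofactor and TEAD factors, 4 were higher (25%) and 5 lower (31.2%). EDN1, VGLL1, ANKRD1 and CCN2 were the low ones called under every setting, and DOCK5 (0.53 ± 0.07), MYOF (0.40 ± 0.05) and the factor TEAD1 (0.33 ± 0.06) the high ones. EDN1 fell while ECE1, the protease that activates its product, rose by 0.43 ± 0.06 from 8.78, 8.80 and 8.72 to 9.23, 9.12 and 9.26. JAG1 was the 1 called of 10 Notch genes, at 8.54, 8.19 and 8.32 against 9.98, 9.78 and 9.61.

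Of 12 NF-kB targets and chemokines 4 were higher (33.3%) and 8 were not called. For comparison, 12.9% of all tested genes and 28.7% of their brightest class were higher. CXCL8, a neutrophil chemokine, went from 5.59, 5.72 and 5.83 to 6.68, 6.39 and 6.45 and rose by 0.80 ± 0.15 (log2, SE), the cytokine LIF by 0.67 ± 0.07 and IRF1 by 0.44 ± 0.10. Of 9 interferon-stimulated genes 2 were higher (22.2%) and 1 lower (11.1%), with a median of -0.12. SAMD9 rose by 0.69 ± 0.07 under every setting, while IRF7 (0.34) and IFITM3 (-0.52) lost their calls without carnosic acid array 2 or untreated array 2. IFITM3 lost it without carnosic acid array 1 too, and IRF7 without carnosic acid array 3. The antigen-trimming peptidase ERAP1 (0.55 ± 0.10) was the 1 called of 4 genes of HLA class I and antigen processing. Of 10 genes of steroid and retinoid metabolism 3 were higher and 2, HSD17B2 and HSD17B11, lower, with a median of -0.09 and each call under every setting. DHRS3, which returns retinal to retinol, went from 8.30, 8.28 and 8.21 to 9.22, 9.10 and 9.14 (0.89 ± 0.05), RDH10, which oxidises retinol, rose by 0.84 ± 0.07 and RDH11 by 0.43 ± 0.06. Of 5 tested aquaporin and ion transport genes AQP3, a glycerol channel, rose by 0.87 ± 0.09 from 7.44, 7.59 and 7.70 to 8.32, 8.45 and 8.55 while AQP5 fell.

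Carnosic acid was then compared with rosemary extract to show where it differed. Of 11163 genes 1933 differed (17.3%), 1013 higher with carnosic acid (9.07%) and 920 lower (8.24%). The doses are not given, so the difference is one between these 2 treatments as applied, and the lower count was 551 without extract array 1, 533 without extract array 2 and 612 without carnosic acid array 2. Both contrasts use the same carnosic acid arrays. Of the 1440 genes called higher with carnosic acid against untreated cells, 518 (36%) were called below the extract and 68 (4.72%) above it. Of the 683 called lower, 264 (38.7%) were above the extract and 15 (2.2%) below it. Among genes called in both, TYMS, MNS1, KIF20A, KIF11, CENPI and TOP2A lay furthest above the extract, by 1.90 to 2.30 on the log2 scale. TOP2A was at 10.23, 10.58 and 10.79 with carnosic acid, 8.61, 8.73 and 8.58 with the extract and 11.03, 11.06 and 11.15 in untreated arrays. Every treated array of either kind was below every untreated one, and the extract arrays were far the lowest. Of the 6 only TOP2A kept its call against untreated cells under every setting, and KIF11 lost it without carnosic acid array 1 (adjusted p = 0.0556). Furthest below the extract were MT1G (-5.67), MT1F (-4.00), HMOX1 (-1.99), SLFN5 (-1.84), ULBP1 (-1.71) and SESN2 (-1.58). ULBP1 read 3.68, 3.60 and 3.92 in untreated arrays and 4.48, 4.69 and 4.35 with carnosic acid. With the extract it read 5.78, 6.61 and 6.26. Its untreated mean lay under the dim limit and its carnosic acid mean close to it. The call of ULBP1 against untreated cells therefore rests on levels under or near that limit. Against untreated cells HMOX1 and SLFN5 kept their calls under every setting. Those of MT1F, ULBP1 and SESN2 were lost under 4, 1 and 7 settings, MT1F and ULBP1 without untreated array 2, MT1F and SESN2 without carnosic acid array 1 or 2, and SESN2 also without untreated array 1 or 3 or extract array 2.

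The metallothionein MT1G read 5.55, 5.65 and 5.77 with carnosic acid, 11.21, 11.32 and 11.44 with the extract and 5.46, 5.14 and 5.09 in untreated arrays. The carnosic acid arrays lay just above the untreated ones and far below the extract ones (difference -5.67 ± 0.11). Its call against untreated cells was lost without untreated array 2 or 3 or carnosic acid array 3 (adjusted p = 0.0568, 0.0502 and 0.0529). HMOX1 read 10.29, 10.40 and 10.15 with the extract, and the carnosic acid arrays lay below by 1.99 ± 0.09. FECH, by contrast, differed from the extract by 0.00 ± 0.07 (adjusted p = 0.981) and MAOB by 0.00 ± 0.12 (adjusted p = 0.997). The 95% intervals of these differences ran from -0.16 to 0.15 and from -0.25 to 0.26. That of KRT20 ran from -0.01 to 0.23 around 0.11 (adjusted p = 0.228).

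Few genes called higher with carnosic acid were also called above the extract, 68 of 1440 (4.72%). Several of them, highest with carnosic acid of all 3 groups, are given here. They were chosen after their values were seen, among genes called above both untreated cells and the extract under every setting. TRIM31, a ubiquitin ligase of the gut epithelium, read 9.55, 9.63 and 9.67 with carnosic acid, 8.98, 8.94 and 9.0 in untreated arrays and 8.20, 8.28 and 8.65 with the extract. It lay above untreated by 0.64 ± 0.10 and above the extract by 1.24 ± 0.10 (adjusted p = 0.00095 and 5.85e-06), and all 5 of its rows gave a rise of 0.63 to 0.66. CEMIP, a hyaluronan-degrading protein, read 8.01, 7.87 and 8.15, 7.54, 7.34 and 7.39 and 6.63, 6.63 and 6.94 in the same order. In both genes the extract arrays were below the untreated ones and the carnosic acid arrays above, without overlap.

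GNE, the first enzyme of sialic acid synthesis, read 8.64, 8.65 and 8.69 with carnosic acid against 8.01, 7.79 and 8.02 untreated and 7.65, 7.84 and 7.97 with the extract, so that the latter groups overlapped. ELF5, an epithelial transcription factor, showed the same, at 7.42, 7.64 and 7.79 against 6.90, 6.81 and 7.13 and 7.10, 6.94 and 6.94. FFAR4, a receptor for long-chain fatty acids, read 10.69, 10.65 and 10.53 against 10.15, 10.15 and 10.13 and 10.07, 9.90 and 10.04. TPPP3, a tubulin-binding protein, lay above untreated by 0.39 ± 0.08 and above the extract by 0.84 ± 0.08, EPHB6, an ephrin receptor without kinase activity, by 0.36 ± 0.06 and 0.65 ± 0.06, and PRRG4 by 0.53 ± 0.11 and 0.77 ± 0.11. The sterol gene SQLE and the retinal reductase DHRS3 lay above the extract too, by 0.33 ± 0.07 and 0.33 ± 0.05. RSL24D1, a factor of ribosome assembly, was the reverse case, lowest with carnosic acid at 8.61, 8.49 and 8.48 against 8.81, 8.81 and 8.86 untreated and 9.03, 8.96 and 8.90 with the extract.

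**Figure D5:**
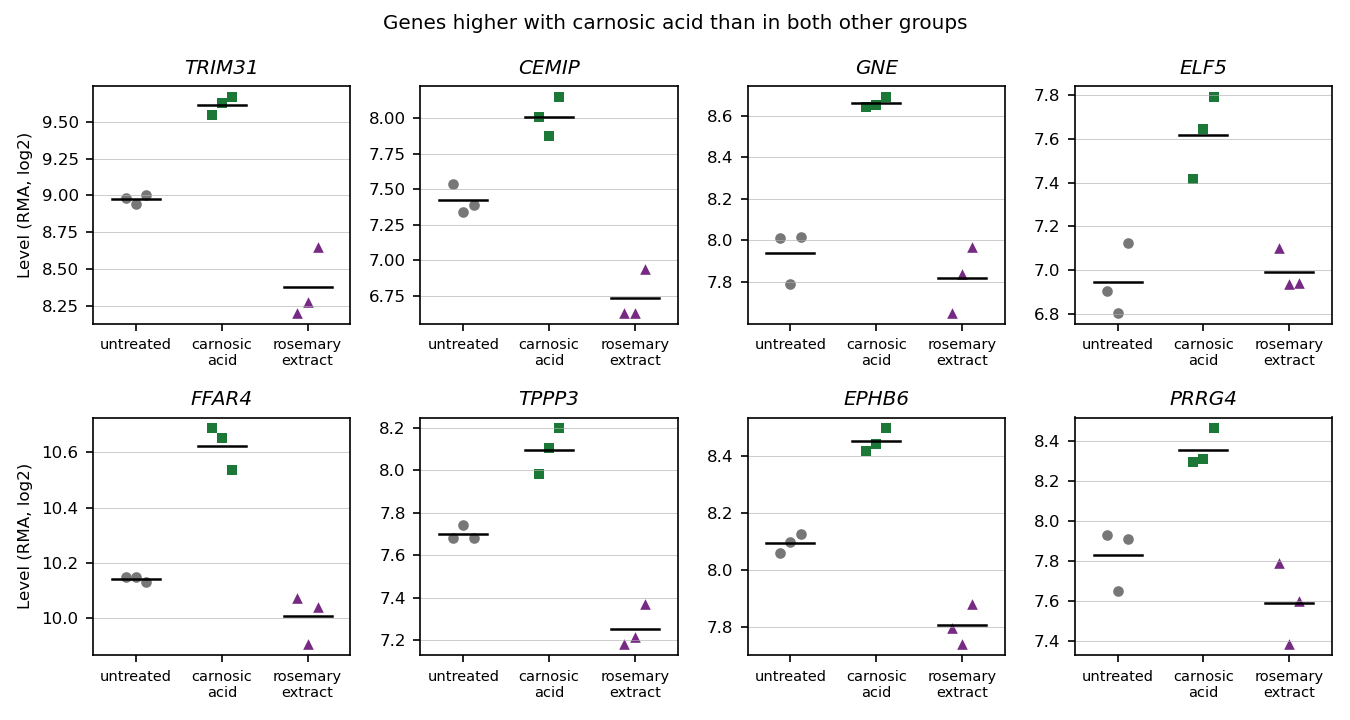
Log2 level in each of the 9 arrays of 8 genes that were higher with carnosic acid than in untreated cells and with rosemary extract, a selection made after the values were seen. Symbols are single arrays, black lines group means, and each panel has its own axis. In TRIM31 and CEMIP the extract arrays lie below the untreated ones, and in GNE and ELF5 those groups overlap.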

How the data were processed

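RNA of 9 HT-29 cultures was measured on Affymetrix GeneChip 2.0 ST arrays. The authors deposited 1 table of RMA values on the log2 scale, made with oligo per the labels' protocols, and its version is not given in the sources used here. RMA corrects background, equalises the arrays' distributions and summarises probes, so shifts common to all genes are removed and small changes are compressed. Of 53617 rows, 16098 have 1 symbol in the platform annotation, 0 several and 37519 none. Each of 14884 genes kept its row of highest mean (779 had more than 1 row), and the dimmest 25% were left out. A model of 3 groups was fitted to all 9 arrays with limma 3.58.1 (eBayes with trend, 6 residual degrees of freedom) in R 4.3.3, with Benjamini-Hochberg adjustment over 11163 genes, and was tested on simulated data. Fold changes are on the log2 scale of the authors' values, and the number of arrays limits their precision.

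Named were the 15 largest rises and falls among called genes whose groups did not overlap and whose means passed the dim limit, without uncharacterised, antisense and divergent transcripts and small RNAs. Up to 3 genes each way with 1 group under that limit, members of gene lists, and the 6 genes furthest above and below the extract among those called in both contrasts were also named. The comparison and the lists were chosen with earlier results of these data known. List shares cover tested members only, and a gene can be in more than 1 list. Many members had no named row: 34 of 47 respiratory chain subunits, 24 of 35 translation factors and 17 of 26 drug and carbonyl genes. None of 10 drug efflux pumps had one. Promoter sequences came from RefSeq (GRCh38.p14). Replicate numbers were not used as pairs in the fit. Deviations of same-numbered arrays correlated between -0.22 and 0.24, and those of differently numbered arrays between -0.355 and 0.28. Between untreated and carnosic acid arrays the same-numbered values were -0.017, 0.188 and 0.238, and the others ran from -0.355 to 0.18. Whether arrays of equal number shared a batch was not tested. No 2 arrays were identical, and the lowest correlation within a group was 0.991.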

Additional observations from a re-analysis of the deposited data

How the results depend on the processing

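Against untreated cells, the 2123 calls became 1385 to 2124 when 1 array was left out and 3468 over all rows of the array, named or not. Higher calls (1440) numbered 1018 to 1459 and 2310 in the same settings, lower calls (683) 367 to 687 and 1158, and calls of at least 2-fold (103) 78 to 122 and 288. The lowest total and the lowest count of falls came without carnosic acid replicate 1. Centring on the tested genes gave 1098 lower calls. It moved the median change to -0.06, and the other centrings and cyclic loess to between 0.00 and 0.03. Against the extract, lower calls (920) ran from 533 to 1036 and all calls (1933) from 1289 to 1965 when 1 array was left out, with 551 and 533 without rosemary extract replicate 1 and 2 and 612 without carnosic acid replicate 2. The causes were not tested. With the replicate number as a block there were 2194 calls, 1460 higher and 734 lower. Of 312 named genes called against untreated cells, 218 kept the call under every alternative that tested them (all 20 for 204, 18 or 19 for 14), 94 lost it under 1 or more and 0 turned direction. Having 3 arrays a group limits what could be called.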

Other observations

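Noncoding transcripts, which the gene lists do not cover, changed too. Of 731 tested long noncoding RNA genes 38 were called higher (5.20%) and 25 lower (3.42%), against 12.9% and 6.12% of all genes tested. Their median untreated level was 5.46, and in the class of tested genes with mean levels of 5.38 to 6.24 the shares were 3.94% and 3.72%. The long noncoding RNA UCA1, known from bladder and other carcinomas, read 9.31, 9.06 and 9.37 in untreated and 10.72, 10.47 and 10.31 in treated arrays and rose by 1.26 ± 0.10 (log2, SE, limma's adjusted p = 1.61e-05), while its dimmer row gave 0.17. CLDN10-AS1, antisense to a claudin gene, went from 6.11, 5.81 and 6.43 to 7.95, 7.61 and 7.72, a rise of 1.64 ± 0.14, and lay above the extract by 0.96 ± 0.14. APCDD1L-DT rose by 1.69 ± 0.16 and MIR22HG, the host transcript of miR-22, by 1.2 ± 0.14. None of the 4 overlapped between the groups, and strand-specific detection was not tested. These genes were named after their values were seen.

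Of 429 tested rows named for miRNA genes 16 were higher (3.73%) and 42 lower (9.79%), against 12.9% and 6.12% of all genes tested. Their median untreated level was 5.91. In the class of tested genes with mean levels of 5.38 to 6.24 the shares were 3.94% and 3.72%. MIR4521 rose by 1.62 ± 0.18 from 4.86, 4.92 and 4.87 to 6.13, 6.38 and 6.99, and its second row, under the dim limit, gave 0.38. The mature miRNA lies at chr17:8186948-8186969 (plus strand, GRCh38.p14, RefSeq) and is shown with its seed, bases 2 to 8, in capitals.
hsa-miR-4521: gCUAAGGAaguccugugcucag
Whether such a row measured the mature RNA or its precursor was not tested. All 3 tested vault RNAs, short transcripts of RNA polymerase III, were called higher. VTRNA1-3 rose by 0.97 ± 0.19 from 5.00, 5.18 and 5.47 to 6.35, 5.93 and 6.30, and VTRNA2-1 stood at 4.31, 4.69 and 4.60 against 5.26, 5.46 and 5.15, each under all 19 settings in which it was tested. VTRNA1-1 had overlapping groups, 4.23, 4.87 and 5.28 against 5.53, 5.21 and 5.99, and lost its call under 11 of 19, among them without untreated replicate 1 or 2, any extract replicate, or carnosic acid replicate 1 or 3.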
